A study of Homo sapiens with 6 samples.

Results

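The interleukin-1 (IL-1) family genes described here are 10 genes chosen by symbol as the ligands, antagonists and receptors of this family that keratinocytes use, out of 38167 genes counted in the series, and each of the 10 had a row in the count table. They are the agonists IL1A, IL1B, IL18, IL33 and IL36G, the antagonists IL1RN and IL36RN, and the receptor chains IL1R1, IL1R2 and IL1RAP. They were measured by RNA sequencing in spheroids of Cal27, an established human cell line of tongue squamous carcinoma. The stiff group was 3 libraries of spheroids kept in 12 mg/mL Matrigel and the soft group was 3 libraries of spheroids kept in 3 mg/mL Matrigel, a gelling extract of basement membrane proteins. All 6 libraries came from cells of the same line grown by liquid overlay and harvested on day 14, and the labels name no other agent. A denser gel differs from a dilute one in stiffness and in the amount of matrix protein, and these cannot be told apart here. The labels call the libraries biological replicates without saying whether they came from separate cultures, so each p-value reflects only how these 6 libraries spread, which may be technical. In these bulk samples, fewer cells of a type and less RNA per cell cannot be told apart.

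The IL-1 family couples damage and infection to inflammation at epithelial surfaces. IL-1α and IL-1β bind the receptor IL1R1, which then recruits the accessory chain IL1RAP, and the paired chains signal through MYD88 and IRAK kinases to NF-κB and MAP kinases. IL1RAP also serves the receptors of IL-33 and of the IL-36 cytokines. The antagonists IL1RN and IL36RN occupy the receptors of IL-1 and IL-36 without signalling, and IL1R2 is a decoy that binds IL-1 and lacks the signalling part. Squamous epithelium stores IL-1α as a preformed alarmin, while IL-1β and IL-18 are made as precursors that caspase-1 cleaves. The values below are transcript levels per gene: they do not separate the isoforms of a gene and do not show how much protein was made, cleaved or released.

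The promoters of 4 members are shown because these are the called members with the highest counts: IL1A, IL1B and IL1RN were lower in stiff and IL1RAP was higher. Each is a 300 base window of RefSeq GRCh38.p14, from 250 bases before to 50 bases after an annotated start, read 5′ to 3′ on the strand of the gene. Capitals mark matches to TGANTCA, the binding motif of AP-1, searched on both strands. No window shown held a match to the NF-κB consensus.
IL1A: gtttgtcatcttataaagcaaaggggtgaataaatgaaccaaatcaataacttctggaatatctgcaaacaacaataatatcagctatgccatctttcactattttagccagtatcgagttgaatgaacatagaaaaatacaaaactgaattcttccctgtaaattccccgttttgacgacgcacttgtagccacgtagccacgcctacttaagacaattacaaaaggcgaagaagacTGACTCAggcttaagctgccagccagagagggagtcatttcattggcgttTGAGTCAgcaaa
IL1B: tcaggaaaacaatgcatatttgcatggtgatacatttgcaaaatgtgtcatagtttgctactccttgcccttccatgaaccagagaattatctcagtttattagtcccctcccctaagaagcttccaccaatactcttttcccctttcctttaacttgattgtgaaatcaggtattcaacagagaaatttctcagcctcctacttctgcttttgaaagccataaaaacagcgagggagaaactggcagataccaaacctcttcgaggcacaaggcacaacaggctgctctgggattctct
IL1RN: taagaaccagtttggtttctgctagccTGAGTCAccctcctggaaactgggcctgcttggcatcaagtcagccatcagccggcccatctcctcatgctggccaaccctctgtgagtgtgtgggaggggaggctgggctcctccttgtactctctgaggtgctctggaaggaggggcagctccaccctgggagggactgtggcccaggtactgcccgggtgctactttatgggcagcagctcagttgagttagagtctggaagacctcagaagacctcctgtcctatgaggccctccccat
IL1RAP: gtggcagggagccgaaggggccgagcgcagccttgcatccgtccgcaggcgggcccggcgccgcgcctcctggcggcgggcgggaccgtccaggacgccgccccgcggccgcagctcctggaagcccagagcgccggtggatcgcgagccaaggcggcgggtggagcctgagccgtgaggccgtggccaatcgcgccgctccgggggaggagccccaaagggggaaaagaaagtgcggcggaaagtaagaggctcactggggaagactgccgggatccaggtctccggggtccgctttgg
The IL1A window lies at chr2:112784444-112784743 on the minus strand and held 2 AP-1 matches, which begin at positions -12 and 39 from the start. The IL1RN window lies at chr2:113117721-113118020 on the plus strand and held 1 match, which begins at position -223. The IL1B window at chr2:112836730-112837029 on the minus strand and the IL1RAP window at chr3:190513835-190514134 on the plus strand held none. The IL1RAP window was 73.7% G or C, against 39.7% in that of IL1A, 42.3% in that of IL1B and 59.0% in that of IL1RN. Of the 10 members, 9 had a window in the RefSeq table, with 18 windows between them, and 3 of the 18 held an AP-1 match (both windows of IL1A, which overlap and share the sites, and 1 of IL1RN), against 7.71% of all 35116 windows in the table. The NF-κB consensus was found in 1 window each of IL36RN and IL1R2, against 11.3% of all windows. A match shows only that these letters are present.

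The libraries held 35292340 to 36594685 counted fragments in stiff and 30656278 to 40583044 in soft. The first principal component of log2 CPM (fragments of a gene relative to the TMM-scaled library size) carried 75.1% of the variance and separated the groups. Stiff replicate 2 stood apart from stiff replicates 1 and 3 on the second component, which carried 10.8%, and calls of members, and of IL18BP and CASP1, that change without it are given with and without it. All 6 squamous epithelium markers were abundant in both groups but moved both ways. KRT5 was 3.29-fold, KRT14 6.28-fold and TP63 1.61-fold higher in stiff, CDH1 was 1.36-fold and EPCAM 1.26-fold lower, and DSG3 did not pass (edgeR adjusted p = 0.0746). KRT5 and KRT14 stood at 6490 ± 312 and 5160 ± 392 CPM in stiff and 1970 ± 122 and 822 ± 90.2 CPM in soft (SD, n = 3 each), and the part of this shift in the results below was not tested. The leukocyte gene PTPRC had 4 fragments in the 3 stiff libraries together and 1 in the 3 soft libraries, and AIF1 had 0 in every library.

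Expression of the family moved in both directions. IL1RAP rose in stiff, IL1A, IL1B, IL1RN and IL33 fell, and IL18, IL36G, IL36RN and IL1R1 did not pass the test. IL1R2 had too few fragments to be tested. Thus 5 of the 9 tested members (55.6%) passed the threshold of the edgeR quasi-likelihood test, a Benjamini-Hochberg adjusted p below 0.05 over all genes, against 49.1% of the 18676 genes tested. By direction, 1 member was higher, against 25.3% of all tested genes, and 4 were lower, against 23.8%. The CPM of the groups did not overlap for 6 of the 9 tested members, against 59.9% of all tested genes. The median log2 fold change was -0.26 over the tested members and -0.000174 over all tested genes.

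**Figure D1:**
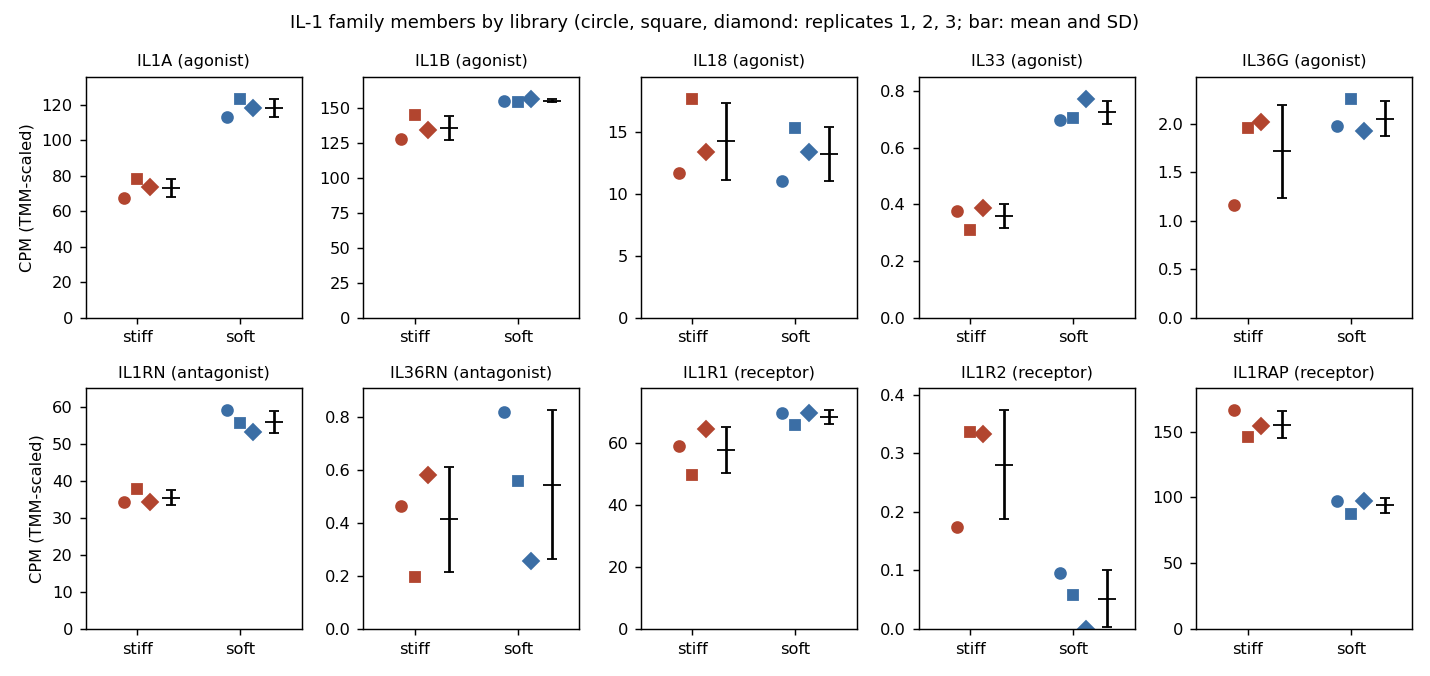
Level of each member in CPM in the stiff (red, left) and soft (blue, right) libraries, with circles, squares and diamonds for replicates 1, 2 and 3 and black bars for mean ± SD (n = 3). IL1A, IL1B, IL33, IL1RN, IL1R1 and IL1R2 keep their groups apart with stiff lower except for IL1R2, IL1RAP keeps them apart with stiff higher, and the groups of IL18, IL36G and IL36RN overlap.

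Among the agonists, IL1A showed the clearest fall. IL1A (Entrez 3552, chromosome 2, 112773925 to 112784493) encodes IL-1α, the alarmin that squamous cells release on damage. It stood at 67.6, 77.9 and 73.7 CPM in stiff replicates 1 to 3 and at 113, 123 and 118 CPM in soft replicates 1 to 3. Every stiff library was below every soft library. The means were 73.1 ± 5.17 CPM in stiff and 118 ± 4.98 CPM in soft (SD, n = 3 each), a level 1.62-fold lower in stiff (log2 fold change -0.69, SE 0.07, edgeR adjusted p = 4.67e-05).

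IL1B (Entrez 3553, chromosome 2, 112829751 to 112836779) encodes IL-1β, the secreted agonist of the same receptor. It stood at 128, 145 and 134 CPM in stiff and at 155, 154 and 156 CPM in soft. The soft libraries lay within 2 CPM of each other and the stiff libraries were more spread, all below them. The level was 1.14-fold lower in stiff, at 136 ± 8.60 CPM against 155 ± 1.00 CPM in soft (log2 fold change -0.19, SE 0.07, edgeR adjusted p = 0.0364). This small difference lost its call when any 1 library other than stiff replicate 2 was left out (adjusted p 0.0908 to 0.143), and without stiff replicate 2 the adjusted p was 0.000549.

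IL33 (Entrez 90865, chromosome 9, 6215149 to 6257983), a nuclear alarmin of epithelium and endothelium, was scarce. It had 13, 11 and 14 fragments in stiff and 29, 24 and 24 in soft, which is 0.377, 0.308 and 0.388 CPM in stiff and 0.698, 0.703 and 0.772 CPM in soft. The groups did not overlap, and the level was 2.01-fold lower in stiff (log2 fold change -1.01, SE 0.30, edgeR adjusted p = 0.0171). The call rests on 38 fragments in stiff and 77 in soft. It was lost in DESeq2 (adjusted p = 0.0793), without stiff replicate 2 (adjusted p = 0.0545), without soft replicate 1 (adjusted p = 0.0504) and without soft replicate 3 (adjusted p = 0.051).

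IL18 and IL36G did not pass the test. IL18 (Entrez 3606, chromosome 11, 112143260 to 112164094), a caspase-1 substrate that prompts interferon-γ production in lymphocytes, stood at 11.7, 17.7 and 13.4 CPM in stiff and at 10.999, 15.3 and 13.3 CPM in soft. Its groups overlapped throughout, with replicate 2 the highest in both. The 95% interval of its log2 fold change ran from -0.26 to 0.48 (edgeR adjusted p = 0.606), and the estimate changed sign without stiff replicate 2 (-0.07, against 0.11 with all libraries). IL36G (Entrez 56300, chromosome 2, 112978006 to 112985658), an IL-36 agonist typical of keratinocytes, stood at 1.16, 1.96 and 2.02 CPM in stiff and at 1.97, 2.26 and 1.93 CPM in soft. Only stiff replicate 1 was below all soft libraries. The interval of its log2 fold change ran from -0.78 to 0.27 (edgeR adjusted p = 0.39).

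Of the antagonists, IL1RN fell and IL36RN did not pass the test. IL1RN (Entrez 3557, chromosome 2, 113099360 to 113134014) encodes the IL-1 receptor antagonist, of which epithelial cells make both a secreted and intracellular forms. It stood at 34.3, 37.8 and 34.4 CPM in stiff and at 59.2, 55.7 and 53.2 CPM in soft. Every stiff library was below every soft library. The means were 35.5 ± 2.01 CPM in stiff and 56.0 ± 3.00 CPM in soft (SD, n = 3 each), a level 1.58-fold lower in stiff (log2 fold change -0.66, SE 0.08, edgeR adjusted p = 8.23e-05).

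IL36RN (Entrez 26525, chromosome 2, 113058638 to 113064744), the antagonist of the IL-36 receptor, had 16, 7 and 21 fragments in stiff and 34, 19 and 8 in soft, which is 0.464, 0.196 and 0.582 CPM in stiff and 0.818, 0.557 and 0.257 CPM in soft. The groups overlapped and the spread within each was wide. The interval of its log2 fold change ran from -1.51 to 0.65 (edgeR adjusted p = 0.489), which spans 0.352-fold to 1.57-fold.

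The receptor chains diverged. IL1RAP (Entrez 3556, chromosome 3, 190514085 to 190659750), the accessory chain without which IL1R1 does not signal, was the only tested member that rose. It stood at 166, 145 and 154 CPM in stiff and at 97.0, 87.2 and 97.5 CPM in soft. Every stiff library was above every soft library. The means were 155 ± 10.4 CPM in stiff and 93.9 ± 5.79 CPM in soft (SD, n = 3 each), a level 1.65-fold higher in stiff (log2 fold change 0.72, SE 0.08, edgeR adjusted p = 4.24e-05). The count covers the full-length and the soluble forms of the chain together.

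IL1R1 (Entrez 3554, chromosome 2, 102070390 to 102179874), the ligand-binding signalling receptor, stood at 59.1, 49.8 and 64.7 CPM in stiff and at 69.6, 65.9 and 69.8 CPM in soft. The groups did not overlap, although stiff replicate 3 lay within 2 CPM of soft replicate 2, and stiff replicate 2 was the lowest. The means were 57.9 ± 7.54 CPM in stiff and 68.4 ± 2.21 CPM in soft (SD, n = 3 each). The log2 fold change of -0.24 (95% interval -0.45 to -0.03) did not pass the threshold (edgeR adjusted p = 0.0573). Without stiff replicate 2 it was -0.14 with an adjusted p of 0.0453, so the call depends on which libraries enter.

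IL1R2 (Entrez 7850, chromosome 2, 101991960 to 102028544), the decoy receptor, had 6, 12 and 12 fragments in stiff and 4, 2 and 0 in soft. The groups did not overlap. With library size taken into account, the 30 stiff fragments and 6 soft fragments gave a 5.02-fold higher level in stiff. Counting error alone puts this ratio between 2.06 and 14.8 (95%, Clopper-Pearson). IL1R2 was below the expression filter with all 6 libraries and has no test in the main fit. An edgeR fit without the filter gave it an adjusted p of 0.0206, and DESeq2 gave 0.0511. Some edgeR fits with a library left out also tested it. It was called higher without stiff replicate 1 (adjusted p = 0.0179) or soft replicate 1 (0.0287), but not without soft replicate 2 (0.0564) or soft replicate 3 (0.0507).

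**Figure D2:**
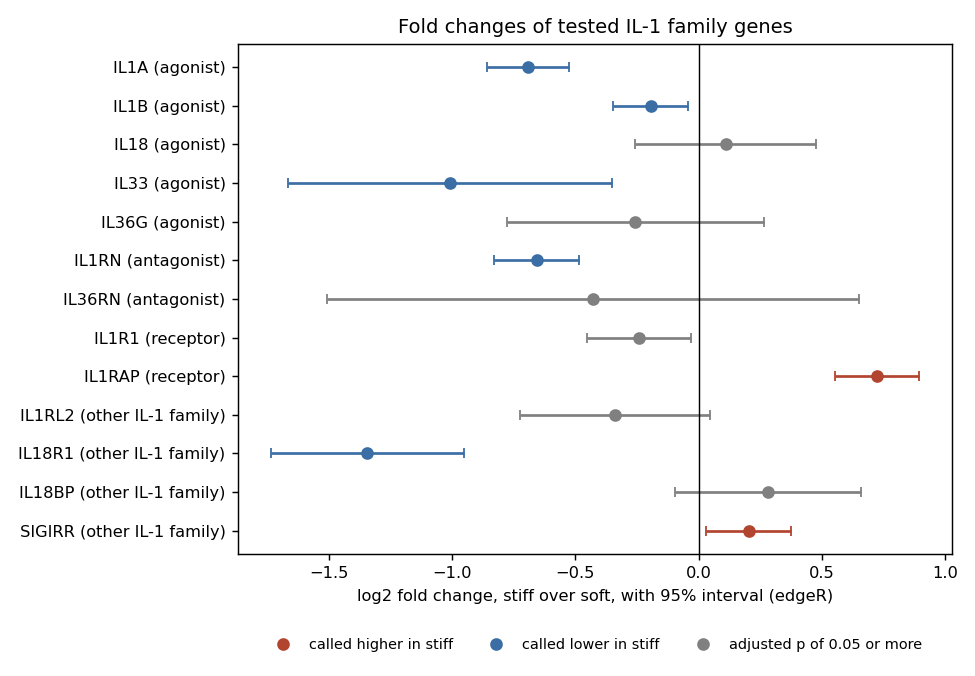
Log2 fold change of stiff over soft with its 95% interval from edgeR, for the 9 tested members and the 4 other tested genes of the family. IL1RAP at 0.72 lies to the right of 0, IL1A at -0.69 and IL1RN at -0.66 lie to the left with narrow intervals, and the scarce genes IL33 and IL36RN have the widest intervals.

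Levels were compared between genes as CPM per kilobase of merged exon, since a longer transcript yields more fragments. The deposited TPM were not used for this: over 5787 well counted genes, the log2 length that counts and TPM imply correlated with merged exon length at r = 0.668 and with that length times the number of RefSeq transcripts at r = 0.906 (across genes, which are not independent replicates). On the per-kilobase scale IL1B and IL1A were the most abundant members in both groups. IL1B stood at 43.8 ± 2.78 CPM per kilobase in stiff and 50.2 ± 0.324 in soft, and IL1A at 34.4 ± 2.43 in stiff and 55.6 ± 2.35 in soft.

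The middle of the order held the receptors and IL1RN. In stiff, IL1RAP at 13.4 ± 0.897 CPM per kilobase came before IL1RN at 10.9 ± 0.616 and IL1R1 at 8.17 ± 1.06, and in soft IL1RN at 17.2 ± 0.921 came before IL1R1 at 9.66 ± 0.312 and IL1RAP at 8.12 ± 0.501. IL18 followed at 5.42 ± 1.18 in stiff and 5.03 ± 0.825 in soft, and IL36G at 1.24 ± 0.349 in stiff and 1.49 ± 0.129 in soft. The remaining members, IL36RN, IL33 and IL1R2, stood between 0.0914 and 0.126 in stiff and between 0.0168 and 0.223 in soft. In stiff these 3 did not differ beyond their spread, nor did IL33 and IL36RN in soft. The order of IL1A and IL1B in soft turned with the length used: on the longest transcript, IL1B stood at 95.2 and IL1A at 55.6 CPM per kilobase. On that length IL1RAP also came before IL1R1 in soft, and IL1R2 before IL36RN and IL33 in stiff.

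**Figure D3:**
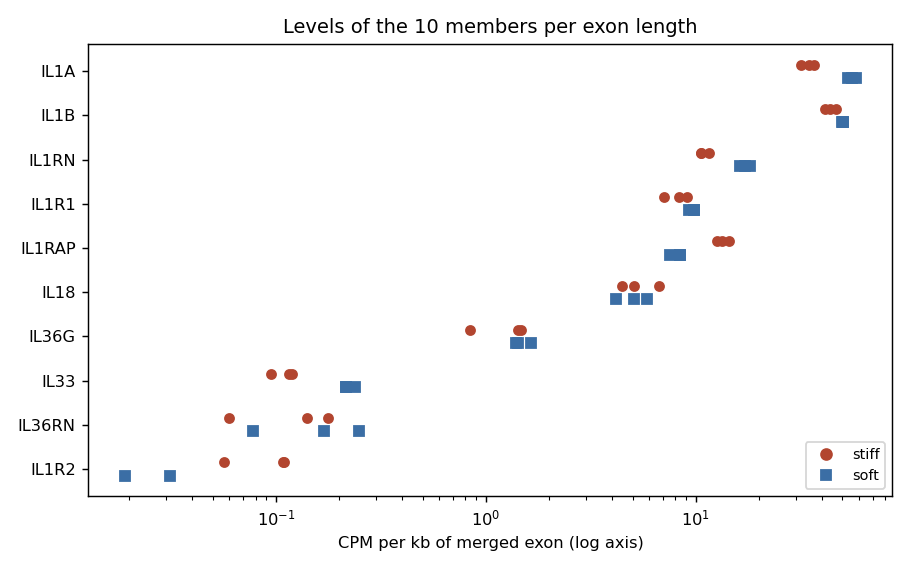
Level of each member in CPM per kilobase of merged exon on a log axis, with 1 point for each stiff (red circles) and soft (blue squares) library. IL1A and IL1B lie highest, IL1RAP is the member with stiff clearly to the right of soft among the abundant genes, and the soft replicate at 0 for IL1R2 cannot be drawn on this axis.

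Ratios within a library show how the members moved against each other without the library scaling. Between the receptor chains, IL1RAP over IL1R1 on the per-kilobase scale was 1.72, 1.79 and 1.46 in stiff and 0.854, 0.811 and 0.856 in soft. IL1RAP was thus above IL1R1 in every stiff library and below it in every soft library, with mean ratios of 1.66 ± 0.175 in stiff and 0.840 ± 0.0252 in soft (SD, n = 3 each). Whether the ratio is above or below 1 depends on the length used, but its difference between the groups does not. Between the agonists, IL1B over IL1A was between 1.252 and 1.296 in stiff and between 0.861 and 0.939 in soft, with no overlap. These 2 ratios were added after the values were seen and are given as descriptions.

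The ratio of IL1RN to the sum of IL1A and IL1B was lower in stiff. IL1RN and IL1A fell by similar amounts (log2 fold change -0.66 and -0.69), while IL1B fell less (-0.19). The lower ratio is therefore not shown for IL1A alone. Against the sum, it comes with IL1B falling less than IL1RN. With a library left out, the log2 fold change was -0.24 to -0.15 for IL1B and -0.71 to -0.62 for IL1RN. IL1RN over the sum of IL1A and IL1B was 0.144, 0.139 and 0.135 in stiff and 0.176, 0.159 and 0.154 in soft on the per-kilobase scale. The groups did not overlap, but the gap between the highest stiff and the lowest soft library was smaller than the spread within soft. The mean ratio was 0.140 ± 0.00455 in stiff and 0.163 ± 0.0116 in soft (SD, n = 3 each), a log2 difference of -0.22, and on the deposited TPM the log2 difference was -0.30. IL36RN over IL36G, on TPM, differed by -0.18 on the log2 scale with a pooled SD of 1.12 and shows no direction.

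**Figure D4:**
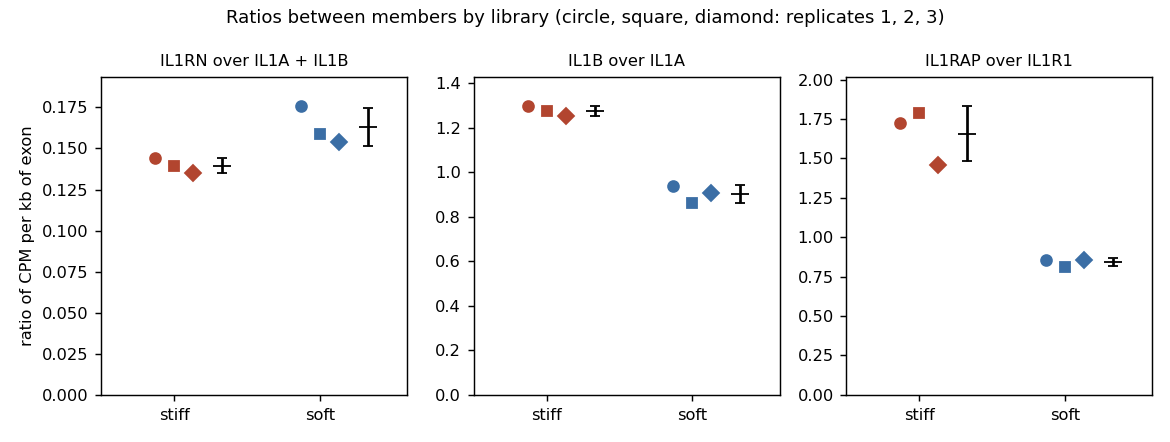
Ratios between members in each library on the scale of CPM per kilobase of exon, stiff (red) left of soft (blue), with circles, squares and diamonds for replicates 1, 2 and 3 and black bars for mean ± SD (n = 3). IL1RN over IL1A + IL1B is lower in stiff, while IL1B over IL1A and IL1RAP over IL1R1 are higher in stiff, and no pair of groups overlaps.

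Most members lie in 1 of 2 clusters on chromosome 2. The ligand cluster spans 360 kb from IL1A to IL1RN and holds 9 protein-coding genes, all of the family. Of these, 5 were tested, 3 were lower in stiff (IL1A, IL1B and IL1RN), where 23.8% of all tested genes were, and 0 were higher, where 25.3% were. The call of IL1B among them was lost when any of 5 libraries was left out. The other members of that cluster were hardly detected: IL37, an anti-inflammatory member of the family, had 21 fragments in stiff and 5 in soft, and IL36A, IL36B and IL1F10 had at most 5 in either group. The receptor cluster spans 461 kb from IL1R2 to IL18RAP and holds 6 genes of the family, of which 3 were tested, 1 was lower (IL18R1) and 0 were higher. IL1RAP, the member that rose, lies outside both, on chromosome 3.

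Outside the 10 members, 4 of 12 further family genes were expressed enough to test, and 1 was higher, 1 was lower and 2 did not pass. This is 50% called, against 49.1% of all tested genes, with 25% higher, against 25.3%, and 25% lower, against 23.8%. The list was thus near the share of all genes. IL18R1, the ligand-binding chain of the IL-18 receptor, stood at 1.25, 1.51 and 1.36 CPM in stiff and at 3.23, 3.43 and 3.86 CPM in soft. It was 2.54-fold lower in stiff (log2 fold change -1.35, SE 0.18, edgeR adjusted p = 0.000164), while its partner chain IL18RAP had 2 fragments in each group. SIGIRR, an inhibitory receptor of the family, was 1.15-fold higher, at 41.5 ± 2.76 CPM in stiff and 36.1 ± 1.11 CPM in soft (edgeR adjusted p = 0.0498), a call that was lost when any 1 library was left out (adjusted p 0.0519 to 0.185) and in DESeq2 (adjusted p = 0.0814). IL1RL2, the IL-36 receptor, stood at 2.82 ± 0.536 CPM in stiff and 3.56 ± 0.0661 CPM in soft (edgeR adjusted p = 0.132). IL18BP, the secreted binding protein of IL-18, stood at 12.8 ± 3.23 CPM in stiff and 10.5 ± 0.656 CPM in soft (edgeR adjusted p = 0.192); without stiff replicate 2 its log2 fold change was 0.48, against 0.28 with all libraries, and it passed (adjusted p = 0.000286). It shares 15.6% of its exons with NUMA1 on the other strand and is uncertain. IL1RL1, the IL-33 receptor, had 2 fragments in stiff and 6 in soft.

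Of 21 genes that process or release IL-1 family cytokines, 19 were tested, and 7 were higher, 5 were lower and 7 did not pass. This is 63.2% called, against 49.1% of all tested genes, with 36.8% higher, against 25.3%, and 26.3% lower, against 23.8%. The median log2 fold change was 0.12. CASP1, the protease that matures IL-1β and IL-18, stood at 141 ± 5.03 CPM in stiff and 152 ± 7.43 CPM in soft, with overlapping groups (edgeR adjusted p = 0.208). It was called lower without stiff replicate 2 (adjusted p = 0.0396) and by limma on TPM (adjusted p 0.0185 to 0.0216 in 3 fits). CASP5, an inflammatory caspase that senses bacterial lipopolysaccharide, was 5.61-fold lower, at 0.87, 0.673 and 1.28 CPM in stiff and at 5.10, 6.21 and 4.57 CPM in soft (edgeR adjusted p = 1.93e-05). CTSS, a lysosomal protease, was 1.68-fold lower and CASP8, the apical caspase of death receptors, was 1.49-fold lower (edgeR adjusted p = 6.85e-05 and 0.000101). AIM2, a sensor of cytosolic DNA, and CAPN1, a calpain, made up the 5 lower genes, and CAPN1 lost its call in 5 of the 6 fits that left out a library.

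GSDMC, a pore-forming gasdermin, was 1.92-fold higher, at 21.8 ± 0.331 CPM in stiff and 11.3 ± 0.66 CPM in soft (edgeR adjusted p = 1.56e-05). The other higher genes of this list, named after their values were seen, were NLRP1, PYCARD, NINJ1, ANXA2, S100A13 and GSDME. GSDME (edgeR adjusted p = 0.0484) lost its call in 13 alternatives, 4 of them with a library left out, and S100A13 is uncertain because another gene covers 24.2% of its exons. NLRP1 is the main inflammasome sensor of human keratinocytes, and it was 2.03-fold higher in stiff. PYCARD, the inflammasome adaptor, is uncertain because an antisense gene covers 59.7% of its exons and strand could not be told in these counts. NLRP3 had 1 fragment in stiff and 3 in soft.

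All 30 genes of receptor signalling were tested, and 7 were higher, 9 were lower and 14 did not pass, which is 53.3% called, against 49.1% of all tested genes. By direction, 23.3% were higher, against 25.3%, and 30% were lower, against 23.8%, so the list was near the share of all genes, and its median log2 fold change was 0.01. IRAK3, an inhibitory member of the IRAK family, was 4.80-fold lower. It stood at 11.5, 9.05 and 15.7 CPM in stiff and at 56.3, 56.7 and 61.2 CPM in soft (edgeR adjusted p = 3.29e-06). NFKBIZ, an inducible nuclear IκB protein, was 2.11-fold lower, at 73.4 ± 6.87 CPM in stiff and 155 ± 15.5 CPM in soft (edgeR adjusted p = 1.32e-05). IRAK2, a kinase of the receptor complex, was 1.57-fold lower, at 39.4 ± 1.38 CPM in stiff and 62.0 ± 3.75 CPM in soft (edgeR adjusted p = 6.84e-05).

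NFKB2, the precursor of the non-canonical NF-κB subunit p52, was 1.47-fold higher, at 148 ± 3.43 CPM in stiff and 101 ± 3.43 CPM in soft (edgeR adjusted p = 7.15e-05). The adaptor MYD88 stood at 27.4 ± 0.739 CPM in stiff and 29.4 ± 0.803 CPM in soft (edgeR adjusted p = 0.258). The call count of this list depends on 1 library: without stiff replicate 2, 12 were higher and 10 lower, and without soft replicate 1, 5 were lower.

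The list of genes taken as responsive to IL-1 and IL-36 in keratinocytes held 39 genes. Of these, 36 were tested, and 8 were higher, 21 were lower and 7 did not pass. This is 80.6% called, against 49.1% of all tested genes, and 58.3% lower, against 23.8%. The median log2 fold change was -0.57. Like the other lists, it was chosen with earlier results of these data known, so these shares are descriptions and not a test. PTGES, which makes prostaglandin E, was 2.51-fold lower, at 83.9, 95.8 and 89.0 CPM in stiff and at 233, 235 and 207 CPM in soft (edgeR adjusted p = 1.06e-06). LCN2, an iron-binding defence protein, was 6.05-fold lower, CCL20, a chemokine for CCR6-bearing cells, was 5.33-fold lower, and BIRC3, an inhibitor of apoptosis, was 2.36-fold lower. Many of these genes also answer to other cytokines, so the list is not particular to IL-1 or IL-36.

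The 8 genes of this list that rose against its median were named after their values were seen. They were PI3, an elastase inhibitor of epithelium, the matrix metalloproteinases MMP1, MMP3 and MMP9, the cytokines TSLP, TNF and IL6, and BCL3, a nuclear IκB protein. BCL3 lost its call in 9 alternatives, 4 of them with a library left out (adjusted p up to 0.0966). MMP1 was 1.51-fold higher, at 251 ± 16.7 CPM in stiff and 167 ± 9.16 CPM in soft. TNF was 1.76-fold higher, at 5.08 ± 1.04 CPM in stiff and 2.89 ± 0.226 CPM in soft. The values of MMP9 and IL6 are uncertain because antisense genes cover 18.4% and 20.7% of their exons, and those of CXCL1, CXCL2, CXCL3, SAA1, SAA2 and DEFB4A because near-identical copies exist.

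**Figure D5:**
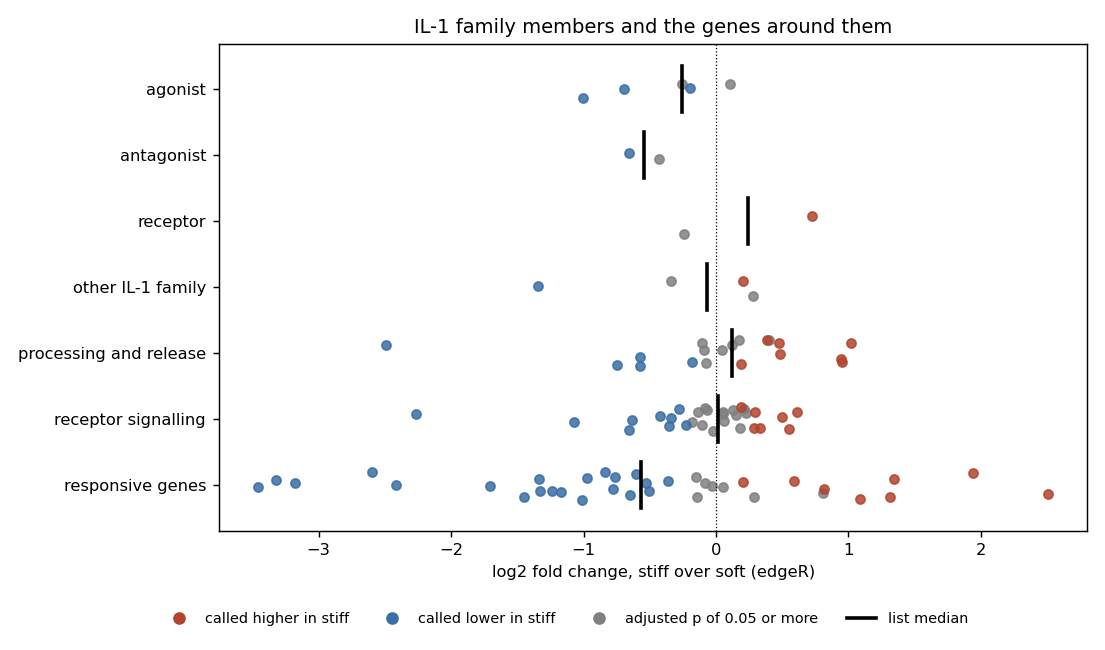
Log2 fold change of stiff over soft for the members by role and for 4 lists of related genes, with 1 point per tested gene, red for higher in stiff, blue for lower, grey for genes that did not pass, and a black bar for the list's median. The responsive genes centre at -0.57 with 21 blue and 8 red points, and the median of the receptor signalling list is 0.01.

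Some markers of other cell types also differed between the groups, and their part in the results was not tested. Called shares were 80% of tested leukocyte, 50% of fibroblast and 50% of endothelial markers, against 49.1% of all tested genes. Higher in stiff were 60%, 50% and 50% of them, against 25.3%, and lower were 20%, 0% and 0%, against 23.8%. Of 8 leukocyte genes, 5 were tested, with 3 higher in stiff (CD68, CSF1R and ITGAM) and 1 lower (CD14), and their summed level was 138 to 152 CPM in stiff and 106 to 115 CPM in soft. CD68, most of that sum in stiff, shares 81.7% of its exons with another gene. The defining leukocyte genes PTPRC and AIF1 were at the values given above, and LYZ, uncertain because an antisense gene covers 34.0% of its exons, had 2 fragments in stiff and 5 in soft. Of 6 fibroblast genes, 4 were tested and 2 were higher (LUM, and COL1A1, whose call was lost in 11 alternatives), with a summed level of 99.1 to 106 CPM in stiff and 72.8 to 80.3 CPM in soft, and COL3A1 had 2 fragments in stiff and 1 in soft. Of 4 endothelial genes, 2 were tested and 1 was higher (VWF), with a summed level of 3.39 to 4.21 CPM in stiff and 1.86 to 2.23 CPM in soft, and KDR had 0 fragments in stiff and 2 in soft.

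Among the 10806 tested genes whose mean reached 10 CPM, those with the most similar course over the 6 libraries were found by the root mean square difference of log2 CPM centred on each gene's mean. For IL1B they were MOAP1 (0.0144), SENP3-EIF4A1 (0.0164) and FBXO42 (0.0195). For IL1RN they were SQSTM1 (0.0265), ABCB8 (0.0325) and ABHD5 (0.0333). For IL1RAP they were PALLD (0.0133), IVNS1ABP (0.0309) and NR3C1 (0.0315). This measure compares shapes over libraries that fall into 2 groups, so genes with the same difference between groups score as alike.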

How the data were processed

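Polyadenylated RNA of 6 Cal27 libraries was sequenced as paired reads on directional libraries, per the labels' protocols. Per the submitters' processing notes, the tools were STAR 2.6.1e and featureCounts 1.6.2 (hg38) after cutadapt 1.9.1, Trim Galore 0.4.2 and FastQC 0.11.7. Annotation and strand setting: not given in the sources used here. As deposited, the counts are whole fragments per gene, without normalization. The deposited TPM, given by the authors to 1 decimal, were used for alternatives, a ratio and the choice of the leading member of each role.

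The counts were tested with edgeR 4.0.16 in R 4.3.3 (quasi-likelihood, TMM factors, default filter, no covariate, Benjamini-Hochberg threshold 0.05) over all genes. Alternatives were DESeq2 1.42.0, limma 3.58.1 on log2(TPM + 1) and log2(TPM + 0.1), other scaling factors and filters, a robust fit, a threshold of 0.01, a replicate block and each library left out. The levels and ratios per kilobase were added after seeing the data. Exon lengths and overlaps came from GENCODE release 29, and positions and promoters from RefSeq GRCh38.p14; genes with at least 10% of exons covered by a partner are given as uncertain.

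The members and lists were chosen with earlier results of these data known. The named genes were the members, up to 4 genes per list by smallest p, 5 fixed genes and 3 genes most alike to the leading member of each role. The leading member was the one with the highest mean TPM. On simulated counts of 18389 genes for stiff against soft, edgeR found 12% of the 1.25-fold changes, 46% of the 1.5-fold changes, 68% of the 2-fold changes and 94% of the 4-fold changes, and 4.35% of calls were false. The simulation changed only 50 genes at each fold, whereas 49.1% of the tested genes were called in the data. The adjustment of p is stricter when few genes change, so these shares need not hold for the comparison made here. Chi-square per degree of freedom between libraries of a group was 3.39 to 33.4, so none was a duplicate. The edgeR intervals rest on the spread between libraries; the Clopper-Pearson interval of IL1R2 covers counting error only, since amplified fragments are not independent molecules.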

Additional observations from a re-analysis of the deposited data

How the results depend on the processing

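The calls of IL1A, IL1RN and IL1RAP kept their direction and stayed past the threshold in each of the 18 alternatives run. Over all genes, 4722 were higher and 4449 lower in stiff; leaving out 1 library gave 3746 to 5379 higher and 3410 to 5224 lower. The higher count was 2880 with limma on log2(TPM + 1), 2831 with log2(TPM + 0.1) and 3138 without the TPM filter. With library size only, 4181 were higher and 5170 lower, so the share of higher calls was 44.7% against 51.5%, and the median of all genes moved by -0.06. Members called higher were 2 without a count filter and 1 to 2 with a library left out. Where 2 were called, they were IL1RAP and IL1R2. Members called lower were 2 at a threshold of 0.01 and 2 to 4 with a library left out. The count of other IL-1 family genes called higher was 0 to 1 with a library left out. The 1 was IL18BP, without stiff replicate 2 (edgeR adjusted p = 0.000286), where SIGIRR did not pass (edgeR adjusted p = 0.0519). The count was 0 with DESeq2, RLE, upper quartile or no scaling factors and no count filter. It was also 0 with the robust fit, both filtered limma fits and a threshold of 0.01. In limma without a filter the count was 1, a gene other than SIGIRR (adjusted p = 0.219) and IL18BP (adjusted p = 0.712). The count of other IL-1 family genes called lower was 1 in each fit with a library left out. It was 0 in both filtered limma fits, where IL18R1 was not tested because its mean TPM was below the filter of 1. Signalling genes higher were 4 in all 3 limma fits and 5 to 12 with a library left out; those lower were 5 at a threshold of 0.01 and 5 to 10 with a library left out. Processing genes ranged over 6 to 8 higher and 4 to 6 lower, and responsive genes over 7 to 10 higher and 20 to 21 lower. IL1B lost its call in 6 alternatives and IL33 in 6, including limma without a filter (adjusted p = 0.489). In that fit IL33 entered at 0 or 0.1 TPM in every library, which is too coarse to show a change. IL1R1 gained a call in 5, including library size only (adjusted p = 0.0267) and no count filter (adjusted p = 0.0222). The log2 fold change of IL18 turned to -0.017, -0.019 and -0.017 in limma on log2(TPM + 1), log2(TPM + 0.1) and without a filter, and was -0.072 to 0.24 with a library left out (below 0 without stiff replicate 2 or soft replicate 1). That of IL36RN was -0.75 to 0.0083 with a library left out (above 0 without soft replicate 1). The log2 difference of IL1RN over IL1A + IL1B on TPM was -0.30, and -0.34 to -0.25 with a library left out. On the per-kilobase scale it was -0.22, and no library was left out there. That of IL36RN over IL36G, on TPM with a library left out, was -0.76 to 0.55, reversed without stiff replicate 2 (0.55) and without soft replicate 1 (0.24). Other causes of these changes were not tested. IL1R2 over IL1R1 was planned on TPM and was not computed, since IL1R2 is listed at 0 TPM in every library. It was not computed on CPM either, where IL1R2 is at 0 in soft replicate 3.

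With the replicate number as a block, 5167 genes were higher and 5039 lower, the members kept their calls and IL1R1 joined those lower (adjusted p = 0.0119). The numbers were not taken to pair the libraries: deviations of same-numbered libraries correlated at 0.07, 0.22 and 0.05, and not every library correlated best with its own number.

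Scarce members limit precision: IL33, IL36RN and IL1R2 had at most 77 fragments in a group.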
